A study of Mus musculus with 168 samples.

Results

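The cerebral cortex of sham-treated control mice was set against the rest of the brain of the same animals. Its members were the 3 cortex arrays of the control time point (0hr in the labels), chosen by their labels alone, and they were compared with the 18 control arrays of the other 6 regions. In all, the series holds 8 time points of 21 arrays each, with 3 arrays per region and time point, and was made to follow gene expression in 7 brain regions during and after hypoxia on Affymetrix Mouse Expression 430 2.0 arrays. All animals were male C57BL/6 mice aged 8 to 9 weeks. Control mice were kept for 3 h in the chambers under room air and then for 24 h in the home cage. The other 7 groups breathed 8% oxygen and were killed after 1 or 3 h of it (H1, H3) or 1, 3, 6, 12 or 24 h after return to room air (R1 to R24). Each array holds RNA of one dissected region: cerebral cortex, cerebellum, hippocampus, midbrain, pons and medulla, striatum or thalamus.

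The cerebral cortex is a layered sheet of glutamatergic projection neurons that derive from the embryonic pallium, as those of the hippocampus do, and of GABAergic interneurons that migrate in from the ventral forebrain. Neurons of the upper layers project mainly to other cortical areas, those of layer 5 to striatum, brainstem and spinal cord, and those of layer 6 to thalamus. Transcription factors such as Tbr1, Fezf2, Emx1 and Mef2c specify these neurons or keep their identity, and myelinated tracts take up less of the grey matter of cortex than of brainstem.

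Levels are given as deposited, as linear intensities that are comparable between arrays for one probe set and not between probe sets. A difference is the mean log2(value + 16) of cortex minus that of the other regions, a scale that understates the change of transcripts with low intensity, and ± gives its standard error. A transcript was called at a Benjamini-Hochberg adjusted p under 0.05 over 45037 probe sets in limma together with a change of at least 2-fold, in a fit of the 21 control arrays with the replicate number as a block. A gene was read from the probe set with the highest mean level among those that name only it. The 3 cortex arrays resembled each other (r = 0.976 to 0.980 across probe sets), and their median intensities, 42.9 to 48.3, lay within the 40.0 to 48.9 of the other 18 arrays.

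The lists of cortical markers divided on the arrays labelled cortex, and markers of striatum, cerebellum and hippocampus were far below their own regions. The cortex arrays had the highest summed intensity of the 19 measured pallial transcription factors, 9213 to 9874, against 2502 to 8605 on the 18 others. They also had the highest sum of 13 upper layer markers, 5354 to 5693 against 2871 to 5256. The sum of 13 layer 5 markers was lower in cortex, 2427 to 2774, than in hippocampus, 4246 to 4677, or striatum, 4233 to 4597. A sum follows its brightest members, and the median layer 5 marker differed by -0.57 from hippocampus and 0.08 from striatum in log2(value + 16). The sum of 16 layer 6 and subplate markers, 2788 to 3170 in cortex, was below the 3270 to 3511 of striatum and above the other regions. The sum of 28 interneuron genes was 9160 to 10031 in cortex against 14216 to 15191 in striatum and 12881 to 13992 in cerebellum. The summed intensity of 18 striatum markers was 3988 to 4570 in cortex against 25998 to 29261 in striatum, and that of 19 cerebellum markers was 3035 to 3054 against 36222 to 40520 in cerebellum. The sum of 13 hippocampus markers was 1151 to 1284 in cortex and 5180 to 5386 in hippocampus.

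Of the 26 genes with at least 1 probe set that stood above every other region in cortex, 21 matched a promoter, 28 promoters in all. The promoters of 4 of these genes are shown because each holds letters of a motif bound by a factor with a high cortical level here. Each runs from 250 bases before to 50 bases after the start of transcription, and the capitals mark the motif. The sequences are from RefSeq, assembly GRCm38.p6, at chr7:45211834-45212133 on the minus strand for Dkkl1, chr13:83573357-83573656 on the plus strand for one of the Mef2c promoters, chr12:75177283-75177582 on the minus strand for Kcnh5 and chr1:56971219-56971518 on the plus strand for 9130024F11Rik.
Dkkl1: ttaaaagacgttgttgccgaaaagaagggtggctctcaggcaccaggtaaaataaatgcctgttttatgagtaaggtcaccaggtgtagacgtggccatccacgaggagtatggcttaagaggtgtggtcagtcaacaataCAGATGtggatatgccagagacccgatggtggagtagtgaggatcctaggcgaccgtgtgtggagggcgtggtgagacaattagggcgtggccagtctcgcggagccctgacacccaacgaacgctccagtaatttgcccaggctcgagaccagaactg
Mef2c: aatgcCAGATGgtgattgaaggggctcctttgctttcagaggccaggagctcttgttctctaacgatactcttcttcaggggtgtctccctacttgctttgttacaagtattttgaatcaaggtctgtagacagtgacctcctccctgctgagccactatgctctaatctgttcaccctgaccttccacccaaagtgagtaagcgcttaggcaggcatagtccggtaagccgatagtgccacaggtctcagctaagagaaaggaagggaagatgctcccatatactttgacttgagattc
Kcnh5: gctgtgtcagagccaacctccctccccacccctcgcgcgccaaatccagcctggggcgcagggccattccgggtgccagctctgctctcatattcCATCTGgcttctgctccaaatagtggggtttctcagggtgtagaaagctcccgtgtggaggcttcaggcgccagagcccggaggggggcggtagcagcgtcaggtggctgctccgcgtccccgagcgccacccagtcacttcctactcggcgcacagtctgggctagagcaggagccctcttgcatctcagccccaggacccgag
9130024F11Rik: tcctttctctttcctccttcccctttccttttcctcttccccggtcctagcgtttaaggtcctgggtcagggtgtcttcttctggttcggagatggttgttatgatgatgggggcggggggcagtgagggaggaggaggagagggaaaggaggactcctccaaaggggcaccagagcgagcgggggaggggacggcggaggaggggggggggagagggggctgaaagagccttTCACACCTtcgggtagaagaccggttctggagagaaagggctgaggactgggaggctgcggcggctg
The letters CAGATG, the E-box bound by NeuroD factors, appear in the promoters of Dkkl1 and Mef2c, and on the opposite strand, as CATCTG, in that of Kcnh5. The promoter of Tnnc1, not shown, also holds CAGATG, at 2 positions. The letters AGGTGTGA, a T-box bound by Tbr1, appear on the opposite strand of the 9130024F11Rik promoter, as TCACACCT. Searched on both strands, the E-box was in 14.3% of the 28 promoters and in 17.2% of all 32851, but in 13.4% of the 18109 promoters of genes on the array. The T-box was in 3.57% of the 28, against 1.28% of all and 1.07% of those on the array. The cyclic AMP response element TGACGTCA was in 3.57% against 1.79% and 2.49%, while the EGR letters GCGTGGGCG and the MEF2 letters CTAAAAATA were in 0 of the 28 promoters against 0.612% and 0.517% of all and 0.983% and 0.342% of those on the array. None of these motifs contains another. A match is a description of letters and says nothing of binding in these samples.

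Against the mean of the other 6 regions, 301 of 18193 genes were higher in cortex (1.65%) and 204 were lower (1.12%), by limma with Benjamini-Hochberg adjustment. In bulk tissue, more or fewer cells of a type and more or less RNA per cell cannot be told apart, and this holds for every difference given here. The number of genes called depended on the region cortex was set against. Against hippocampus, 124 genes were higher (0.682%) and 139 lower (0.764%). Against striatum, 263 were higher (1.45%) and 255 lower (1.4%). The most genes were called against the hindbrain: 568 were higher (3.12%) and 616 lower (3.39%) than in pons and medulla, and 878 were higher (4.83%) and 596 lower (3.28%) than in cerebellum. Thalamus, with 428 higher (2.35%) and 446 lower (2.45%), and midbrain, with 476 higher (2.62%) and 488 lower (2.68%), lay between. The correlation of mean profiles across probe sets followed the same order, with 0.983 for hippocampus, 0.975 for striatum and 0.937 for cerebellum.

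**Figure D1:**
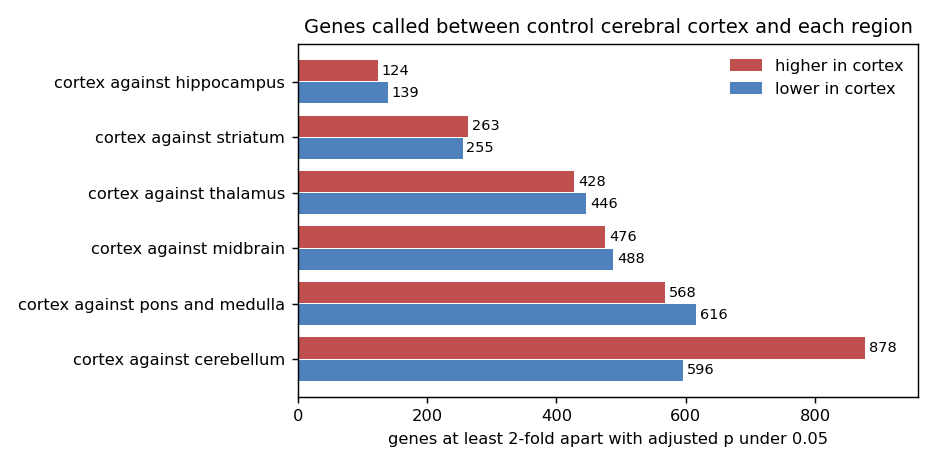
Number of genes called higher or lower in cerebral cortex (horizontal axis) against each other region in turn (vertical axis), in control mice. The counts range from 124 higher and 139 lower against hippocampus to 878 higher and 596 lower against cerebellum.

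Most genes high in cortex were shared with a neighbour in the forebrain. Of the 301 genes above the mean of the other regions, cortex had the highest mean level for 201, hippocampus for 48 and striatum for 40. Cortex was within 1 log2 unit of hippocampus for 227 of the 301 and within 1 unit of striatum for 187. In each of the 3 replicate sets cortex was above the mean of the other regions for all 301 genes, which their selection on these arrays nearly fixes, and above it by more than 1 log2 unit for 217.

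A stricter rule asked that cortex differ from each of the 6 regions at an adjusted p under 0.05 and stand at least 2-fold from the nearest. Cortex stood above every other region in 20 of 18193 genes (0.11%) and below every other region in 2 (0.011%). Among all probe sets, 39 passed for the higher rule and 4 for the lower. These counts depend on the test: within-mouse differences gave 22 and 1, and the methods' t-test 11 and 0. The lower count was also 9 without replicate 2, 13 without its cortex array alone and 8 without the cortex array of replicate 3. In these 20 genes no cortex array overlapped any of the 18 others, which the rule itself nearly requires, and their difference from the mean of the other regions had a median of 1.93 and a range of 1.32 to 3.34. The region next below cortex was hippocampus for 9 genes, striatum for 6, thalamus for 3 and cerebellum for 2.

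Tbr1, a T-box transcription factor of early-born and layer 6 projection neurons, had the largest difference of the 20. Its intensity was 537, 445 and 443 on the 3 cortex arrays, against a lowest, median and highest value of 5.35, 19.4 and 165 on the 18 others. The difference was 3.34 ± 0.09 (adjusted p = 9.95e-12), and hippocampus, the next region, lay 1.49 log2 units lower. Mef2c, a MADS-box factor that shapes synapse number in cortical neurons, read 2807, 2509 and 2544 in cortex against 128, 376 and 1066 elsewhere, a difference of 2.72 ± 0.08 (adjusted p = 1.23e-11). Both factors were far above all other arrays, and 5 separate probe sets of Mef2c each stood above every other region. Outside cortex the Mef2c level was highest in striatum and lowest in pons and medulla.

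Among the 20 genes, the gap to the next region was widest for Dkkl1, a secreted protein related to the dickkopf family of Wnt regulators. It read 127, 108 and 143 in cortex and 2.70, 4.05 and 48.9 in the other regions, with a difference of 2.63 ± 0.20 (adjusted p = 1.6e-07) and a gap of 1.98 to striatum. Stard8, a GTPase-activating protein with a lipid-binding START domain, followed with 291, 335 and 382 in cortex against a narrow 56.2, 74.9 and 104 elsewhere and a difference of 1.90 ± 0.11 (adjusted p = 9.95e-09). The other regions of Stard8 lay in a narrow range, and those of Dkkl1 ran higher in striatum than elsewhere. Pdzrn3, a ubiquitin ligase with PDZ domains, read 376, 411 and 289.9 against 18.1, 45.6 and 111, a difference of 2.50 ± 0.12 (adjusted p = 1.08e-09). Another probe set of Pdzrn3 differed by -0.03, so the call rests on one of its probe sets.

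Several of the 20 genes act at synapses or membranes. Stx1a, a SNARE protein of neurotransmitter release, read 1958, 1713 and 1646 in cortex against 32.8, 317 and 687 elsewhere (2.69 ± 0.12, adjusted p = 8.05e-10), and 2 Stx1a probe sets passed the rule. Cckbr, the cholecystokinin receptor found mainly in brain, read 395, 425 and 357 against 19.5, 112 and 169 (1.93 ± 0.13, adjusted p = 3.67e-08). Its ligand Cck was also higher in cortex, with 1694, 1689 and 1724 against 256, 505 and 1673 (1.56 ± 0.10, adjusted p = 1.84e-08), but hippocampus was close, 0.19 log2 units below. The potassium channel subunit Kcnh5 read 76.0, 91.0 and 54.7 against 0.315, 13.6 and 30.4 (1.64 ± 0.15, adjusted p = 1.12e-06). Kcns1, a modifying subunit that forms no channel alone, was dimmer, with 31.1, 27.2 and 59.2 against 1.72, 4.26 and 25.7 (1.32 ± 0.18, adjusted p = 5.99e-05), and its cortex arrays lay close above the highest of the others.

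Further members of the 20 encode secreted or structural proteins. Igfbp6, which binds insulin-like growth factors, read 452, 467 and 551 in cortex against 27.8, 109.5 and 192 elsewhere (2.17 ± 0.12, adjusted p = 5.64e-09), with cerebellum the next region. Rprm, a p53-induced regulator of the cell cycle used as a marker of deep cortical layers, read 689, 628 and 616 against 30.6, 181 and 348 (1.96 ± 0.12, adjusted p = 1.41e-08). Krt12, known as a keratin of corneal epithelium, read 245, 219 and 282 against 2.24, 36.7 and 94.5 (2.43 ± 0.10, adjusted p = 3.12e-10), and 2 of its probe sets passed. The remaining genes were Hkdc1, Epop, Ttc9b, Tmem132d, Trbv1, Tnnc1, Gm35161 and 9130024F11Rik, with differences of 1.37 to 2.53. Hkdc1, a hexokinase family member, had another probe set with a difference of -0.02. Trbv1 is annotated as a T cell receptor variable segment and was read from a probe set whose name marks possible cross-hybridization, as was the brighter Stx1a probe set. Krt12 and Epop were read from probe sets whose names mark probes shared between transcripts.

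**Figure D2:**
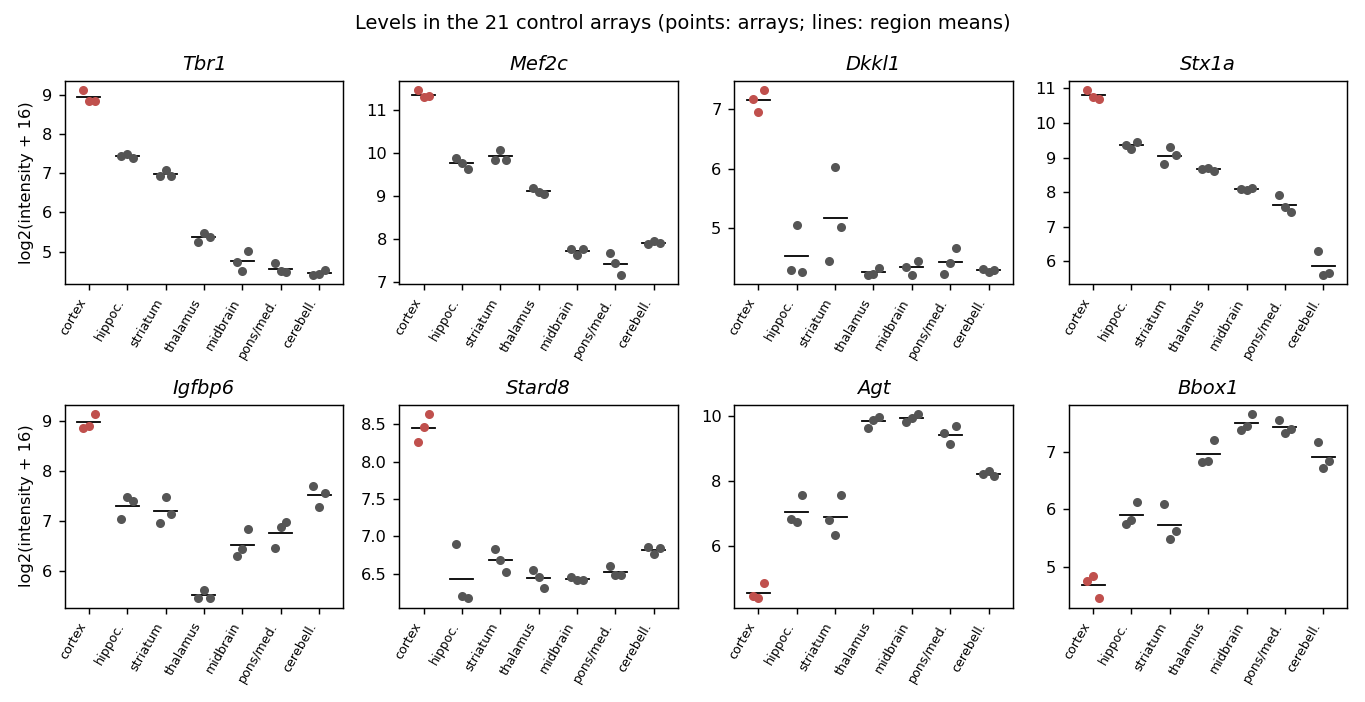
Intensity as log2(value + 16) (vertical axis) of 8 genes on each of the 3 control arrays (points) of each region (horizontal axis). Cerebral cortex is at the left in red. Tbr1, Mef2c, Dkkl1, Stx1a, Igfbp6 and Stard8 have all 3 cortex points above the 18 others, and Agt and Bbox1 have all 3 below.

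Another 6 genes passed the rule with a probe set that was not their brightest, and they were looked at after their values were seen. The clearest was Myl4, a myosin light chain of atrium and embryonic muscle, with 232, 253 and 250 in cortex against 6.11 to 71.3 on the 18 other arrays. Its difference was 2.76 ± 0.16 (adjusted p = 1.09e-08 in limma), and the gap to striatum was 1.98. The others were Dtl, Nlk, Kcnv1, Chrdl1 and Rasgrf2.

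Among the pallial transcription factors, 12 of 19 measured members were higher and 0 lower, with a median difference of 1.23 against -0.02 over all genes. Of all 18193 genes 1.65% were higher and 1.12% lower, shares that belong beside each list count below. Relative to hippocampus alone the median was -0.03, and 3 members were higher and 1 lower, beside 0.682% and 0.764% of all genes. Emx1, a homeobox factor of the dorsal telencephalon, read 69.1, 60.1 and 86.8 in cortex against 3.44, 6.58 and 59.8 elsewhere (1.68 ± 0.22, adjusted p = 4.09e-05), and the lowest cortex array was just above the highest of the others. Another Emx1 probe set differed by 0.44 and was not called. Lmo4, a LIM-only cofactor of sensory and motor areas, read 924, 895 and 1139.6 against 115, 208 and 737 (1.80 ± 0.12, adjusted p = 4.76e-08). It was likewise above all other arrays. Lhx2, a LIM-homeobox factor that specifies cortical progenitors, read 389, 499 and 405 against 2.35, 94.4 and 499.5 (1.99 ± 0.11, adjusted p = 5.57e-09), and cortex overlapped hippocampus.

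Other pallial factors were higher in hippocampus or striatum than in cortex. Neurod6, a basic helix-loop-helix factor of pyramidal neurons, read 397, 477 and 337 in cortex, against 1062, 924 and 919.8 in hippocampus and 57.3, 134 and 57.1 in striatum. It was above the mean of the other regions by 2.54 ± 0.14 (adjusted p = 6.98e-09) and below hippocampus (-1.24, adjusted p = 0.000611). Bcl11b, a zinc finger factor of subcerebral projection neurons and of striatal medium spiny neurons, read 442, 515 and 409.8 in cortex against 1639, 1684 and 1589 in striatum and 902, 923 and 932 in hippocampus. Its difference from the mean of the other 6 regions was 1.19 ± 0.17 (adjusted p = 8.24e-05), yet against the mean of hippocampus and striatum alone it was -1.40. Fezf2, which directs layer 5 fate, read 99.9, 121 and 71.5 in cortex against 1.35, 3.46 and 159 elsewhere (1.80 ± 0.13, adjusted p = 9.65e-08), and hippocampus stood above it. Emx2, Bcl11a, Lmo3 and Neurod2 were also higher than the mean of the other regions, by 1.16 to 1.53. Lmo3 was called no longer when only hippocampus and striatum were the other regions (-0.27). Of the 2 other Neurod2 probe sets, 1 was also called higher (1.91) and 1 had a difference of -0.05. Sox5 (0.89), Pou3f2 (0.78), Nr4a2 (0.77), Id2 (0.47), Tle4 (0.20), Neurod1 (-0.00) and Zfpm2 (-0.22) were not called.

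Of 13 measured markers of the upper layers, 7 were higher in cortex and 0 lower, with a median of 1.05. Lamp5, a membrane protein of superficial neurons, read 1345, 1443 and 1349 in cortex, against 230.3, 279 and 273 in hippocampus and 1114, 1185 and 1344 in the pons with medulla. Cortex was 2.34 above hippocampus (adjusted p = 9.48e-05) and 0.18 above pons and medulla (adjusted p = 0.739), where the highest array lay just below the lowest of cortex. Cux2, a homeobox factor of layers 2 to 4, read 364, 343 and 292 in cortex against 75.6, 132 and 228 elsewhere (1.25 ± 0.09, adjusted p = 8.64e-08), with all 3 arrays above the others. The 2 other Cux2 probe sets differed by 0.050 and 0.76 and were not called. Rorb, a nuclear receptor of layer 4, read 493, 487 and 462 in cortex against 603, 501 and 486 in thalamus, which overlapped it. The difference of Rorb from the mean of the other 6 regions was 1.17 ± 0.07 (adjusted p = 8.72e-09). Kcnh5, Rasgrf2, Inhba and Rspo1 were also higher, by 1.05 to 1.64. Inhba, an activin subunit, was not called against hippocampus and striatum alone (-0.17), and Rspo1, a Wnt agonist, fell short of 2-fold without replicate 3 (0.94).

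Of 13 layer 5 markers 3 were higher and 0 lower (median 0.08), and of 16 layer 6 and subplate markers 4 were higher and 0 lower (median 0.22). Beside Fezf2 and Bcl11b, the layer 5 call was Crym, a thyroid hormone-binding protein, with 175, 214 and 259 in cortex against 1182, 1093 and 1217 in hippocampus and 932, 893 and 731 in striatum. Its difference of 1.25 ± 0.14 (adjusted p = 8.55e-06) came from the other 4 regions, since cortex was lower than hippocampus (-2.36, adjusted p = 8.02e-07) and lower than striatum (-1.91, adjusted p = 3.26e-06). Beside Tbr1 and Rprm, the layer 6 calls were Ccn2, a matricellular protein of subplate neurons, with 293, 294 and 239 in cortex against 29.3, 93.3 and 234 elsewhere (1.37 ± 0.15, adjusted p = 8.45e-06), and Cplx3, a complexin of the same cells (1.20 ± 0.17, adjusted p = 9.37e-05).

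**Figure D3:**
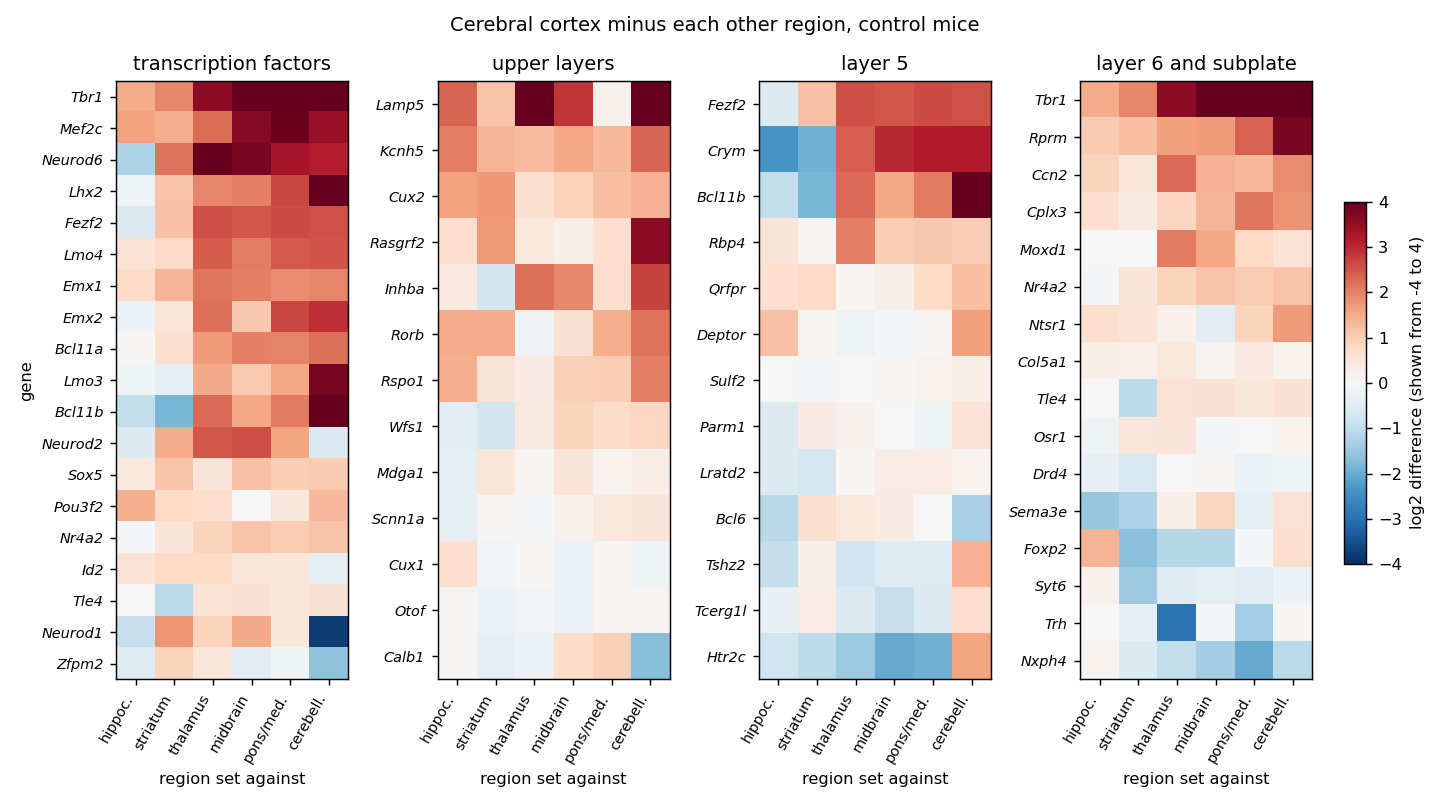
Difference of cerebral cortex from each other region (columns) in log2(value + 16) for the measured pallial transcription factors and upper layer, layer 5 and layer 6 markers (rows), on a colour scale from -4 to 4. Tbr1 and Mef2c are above every region, while Neurod6, Bcl11b and Crym are below hippocampus and above the hindbrain.

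Where 1.65% of all genes were higher and 1.12% lower, 17 of 23 measured genes of forebrain glutamatergic neurons were higher in cortex and 0 lower (median 1.64). Their summed intensity was 34624 to 34917 in cortex, against 30253 to 32497 in hippocampus, 28258 to 31336 in striatum and 8690 to 12365 in the 4 regions behind them. Against hippocampus and striatum alone, 2 of 23 were called. In that setting, used for some lists below too, 189 of all 45037 probe sets were higher and 217 lower. Nrgn, a calmodulin-binding protein of dendritic spines, read 2774, 2872 and 3507 in cortex against 41.7, 316 and 2379.8 elsewhere (2.83 ± 0.20, adjusted p = 5.33e-08). Slc17a7, the vesicular glutamate transporter of cortical terminals, read 1603, 1863 and 2277 in cortex and 1690.0, 1776 and 1432 in hippocampus, with overlap. Its difference from the mean of the other 6 regions was 2.14 ± 0.16 (adjusted p = 1.57e-07). The other vesicular transporter, Slc17a6, was lower in cortex (-1.30 ± 0.24, adjusted p = 0.000987), with 177, 152 and 162 in cortex against 1810.1, 1641 and 1846 in thalamus.

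Ddn, with Egr3, was among the 3 genes furthest above midbrain, pons and medulla, and cerebellum. This dendritic protein, dendrin, read 2823, 2445 and 2166 in cortex and 3104, 2932 and 3088 in hippocampus, against 29.1, 17.3 and 22.5 in cerebellum. Cortex was higher than cerebellum by 6.00 log2 units and differed from hippocampus by -0.30 (adjusted p = 0.392). Kalrn, a guanine nucleotide exchange factor of spines, read 1789, 1637 and 1783 in cortex against 59.5, 139 and 1489 elsewhere (2.81 ± 0.10, adjusted p = 1.16e-10). Its 7 other probe sets differed by 0.53 to 1.34, and 1 of them was called. Icam5, a telencephalic adhesion molecule, was higher by 2.28 ± 0.14 (adjusted p = 1.39e-08), Itpka, which phosphorylates inositol trisphosphate, by 2.23 ± 0.14 (adjusted p = 1.32e-08), and Camk2a, a kinase of synaptic plasticity, by 1.98 ± 0.19 (adjusted p = 1.22e-06). Icam5 and Itpka reached higher values in hippocampus than in cortex, and another Camk2a probe set differed by -0.09.

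Genes of GABAergic interneurons divided. Of 28 measured, 7 were higher and 2 lower (median 0.21), and against hippocampus and striatum alone 2 were higher and 4 lower. Vip, the peptide of interneurons that inhibit other interneurons, read 532, 609 and 694 in cortex against 9.30, 86.5 and 313 elsewhere, with no overlap (2.77 ± 0.15, adjusted p = 4.2e-09). Npy, a peptide of a subset of somatostatin cells, read 903, 724 and 914 against 117, 295 and 674, again with no overlap (1.42 ± 0.09, adjusted p = 2.2e-08). Lhx6, a LIM-homeobox factor of interneurons from the medial ganglionic eminence, read 109, 119 and 141 against 0.792, 22.8 and 155 and overlapped hippocampus and striatum (1.52 ± 0.20, adjusted p = 3.58e-05). Crh, a stress peptide, and Dlx1, a homeobox factor of interneurons, were higher by 1.08 and 1.04. Sst lay at the threshold (1.00 ± 0.10, adjusted p = 1.79e-06) and fell short of 2-fold without replicate 3 (0.98).

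The 2 lower members were Slc32a1 and Calb2. Slc32a1, the vesicular GABA transporter, read 219, 218 and 186 in cortex against 198, 569.7 and 997 elsewhere (-1.21 ± 0.09, adjusted p = 9.38e-08). Its 3 other probe sets differed by -0.34 to -0.0022 and were not called, so the call rests on one of them. Calb2, the calcium-binding protein calretinin, read 38.3, 52.8 and 97.1 in cortex against 54.1, 876 and 2282 elsewhere (-3.20 ± 0.23, adjusted p = 8.91e-08). The highest Calb2 values were those of cerebellum, 2282, 2256 and 2151. Gad1, which makes GABA, read 1486, 1665 and 1602 against 1463, 1849 and 2441 and was not called (-0.23 ± 0.06). Pvalb, of fast-spiking cells in cortex and of Purkinje cells in cerebellum, differed by -0.50 from the mean of the other 6 regions and by 1.11 from the mean of hippocampus and striatum.

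Activity-regulated genes, which neurons transcribe within minutes of synaptic input, were higher in 11 of 25 cases and lower in 0, with a median of 0.95. Their summed intensity was 10014 to 15165 in cortex, 7763 to 8919 in hippocampus, 8728 to 12342 in striatum and 4188 to 6059 in the other 4 regions. Egr3, a zinc finger factor, read 1252, 1703 and 1058 in cortex against 1155, 1313 and 959.8 in striatum and 17.2, 6.65 and 4.67 in cerebellum (3.32 ± 0.16, adjusted p = 1.26e-09). Another Egr3 probe set differed by 0.70 and was not called. Egr1 read 2316, 3085 and 1912 in cortex against 338, 466 and 2852 elsewhere (1.84 ± 0.13, adjusted p = 4.39e-08), and striatum overlapped cortex. Nptx2, a pentraxin that clusters glutamate receptors, read 229, 318 and 333 against 0.817, 78.8 and 215 with no overlap (2.02 ± 0.17, adjusted p = 3.18e-07). Another Nptx2 probe set differed by 0.78 and was not called. Homer1, a postsynaptic scaffold, was higher by 1.75 ± 0.06 (adjusted p = 1.16e-10) and differed from striatum by 0.01.

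The 3 cortex arrays were uneven in these genes. Cortex replicate 2 had the highest value of the 3 for 22 of the 25 genes (88.0%), against 4945 of all 18193 genes (27.2%), a pattern noticed after the values were seen and given here without a test. Arc, a regulator of receptor trafficking, read 89.5, 1074 and 129 on cortex replicates 1, 2 and 3, against 3.66, 61.2 and 416 elsewhere. Its difference was 1.66 ± 0.37 (adjusted p = 0.00376) with all arrays and 0.94 without replicate 2 (adjusted p = 0.0546 in limma). Without replicate 2, 7 of the 25 genes were called, Egr1 (1.67), Egr3 (3.15), Egr4 (1.38), Homer1 (1.70), Inhba (1.15), Nptx2 (2.03) and Nr4a1 (1.15), and Arc, Egr2 (0.80), Fosl2 (0.91) and Junb (0.82) were not. In that fit 530 of all 45037 probe sets were higher and 368 lower. Fos, Fosl2, Arc and Nr4a2 were highest on replicate 2 in all 7 regions.

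Receptors showed a few calls each. Of 26 glutamate receptor subunits and their partners, 4 were higher and 0 lower (median 0.34), and against hippocampus and striatum alone 0 were called in either direction. Cacng3, an AMPA receptor auxiliary subunit, read 531, 467 and 486 in cortex against 48.6, 134 and 435 elsewhere, with no overlap (1.61 ± 0.07, adjusted p = 7.42e-10). Grin2b, an NMDA receptor subunit, was higher by 1.26 ± 0.08 (adjusted p = 1.62e-08) and differed by -0.06 from the mean of hippocampus and striatum. Cnih3, an AMPA receptor auxiliary protein, was higher by 1.25 ± 0.11, and Grm3, a metabotropic receptor, by 1.04 ± 0.13 with all arrays and 0.84 without replicate 1. Of 15 GABA-A and glycine receptor subunits, Gabra3 was higher (1.11 ± 0.10) and Gabra6, of cerebellar granule cells, lower (-1.45 ± 0.17). Gabra6 read 25.0, 21.8 and 12.5 in cortex and 3361, 3161 and 3414 in cerebellum.

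Of 49 receptors for monoamines, acetylcholine and peptides, 8 were higher and 1 lower (median 0.01), beside 1.65% and 1.12% of all genes. Beside Cckbr, the muscarinic receptor Chrm1 read 1024, 931 and 1074 in cortex against 84.6, 164 and 1071 elsewhere (1.85 ± 0.07, adjusted p = 2.44e-10), and arrays of hippocampus and striatum overlapped those of cortex. Vipr1, a receptor for the Vip peptide, read 58.0, 64.1 and 65.4 against 2.89, 5.48 and 31.995 with no overlap (1.57 ± 0.14, adjusted p = 7.92e-07). The somatostatin receptors Sstr2 and Sstr4 were higher by 1.16 each, and the neuropeptide Y receptor Npy1r by 1.13. Chrm3, another muscarinic receptor, was higher by 1.10. Drd1, a dopamine receptor, was above the mean of the other 6 regions (1.23 ± 0.11, adjusted p = 7.67e-07). It was below striatum, with 189.9, 262 and 178 in cortex against 1914, 1791 and 1689 in striatum. Tacr3, the neurokinin B receptor, was lower (-1.28 ± 0.09, adjusted p = 3.77e-08).

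Voltage-gated potassium channel subunits were higher in 8 of 31 cases and lower in 0, with a median of 0.54. Kcnv1, a silent subunit, read 520.4, 536 and 466 in cortex against 2.41, 33.5 and 297 elsewhere, with no overlap (2.86 ± 0.19, adjusted p = 4.29e-08). Kcnf1, another silent subunit, read 221, 370.1 and 236 against 6.31, 98.3 and 162, also without overlap (1.75 ± 0.14, adjusted p = 3.07e-07). Kcnh1, a relative of Kcnh5, was higher by 1.35 ± 0.09 and Kcnh3 by 1.31 ± 0.09. Kcnip2, a partner of A-type channels, was above the mean of the other 6 regions by 1.88 ± 0.12, while the difference from hippocampus and striatum alone was -0.81. Kcnq5, of the M-current, was higher by 1.44 ± 0.08 and differed from striatum by -0.06.

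Of 54 axon guidance and adhesion genes, 5 were higher and 2 lower (median 0.15), beside 1.65% and 1.12% of all genes. Plxnd1, a semaphorin receptor, read 262, 273 and 226 in cortex and 251, 236 and 244 in striatum, against 43.4, 40.5 and 21.9 in midbrain (1.68 ± 0.12, adjusted p = 4.57e-08). Ephb6, an Eph receptor without kinase activity, read 293, 311 and 302 in cortex against 17.7, 126 and 253 elsewhere, with no overlap (1.28 ± 0.10, adjusted p = 1.08e-07). The ephrins Efnb2 and Efna5 and the repellent Sema3a were higher by 1.05 to 1.16, Efna5 by 0.97 without replicate 1. Epha8 (-1.05) and Efnb3 (-1.01) were lower, and Efnb3 was short of 2-fold without replicate 1 (-0.98) or replicate 2 (-0.98).

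**Figure D4:**
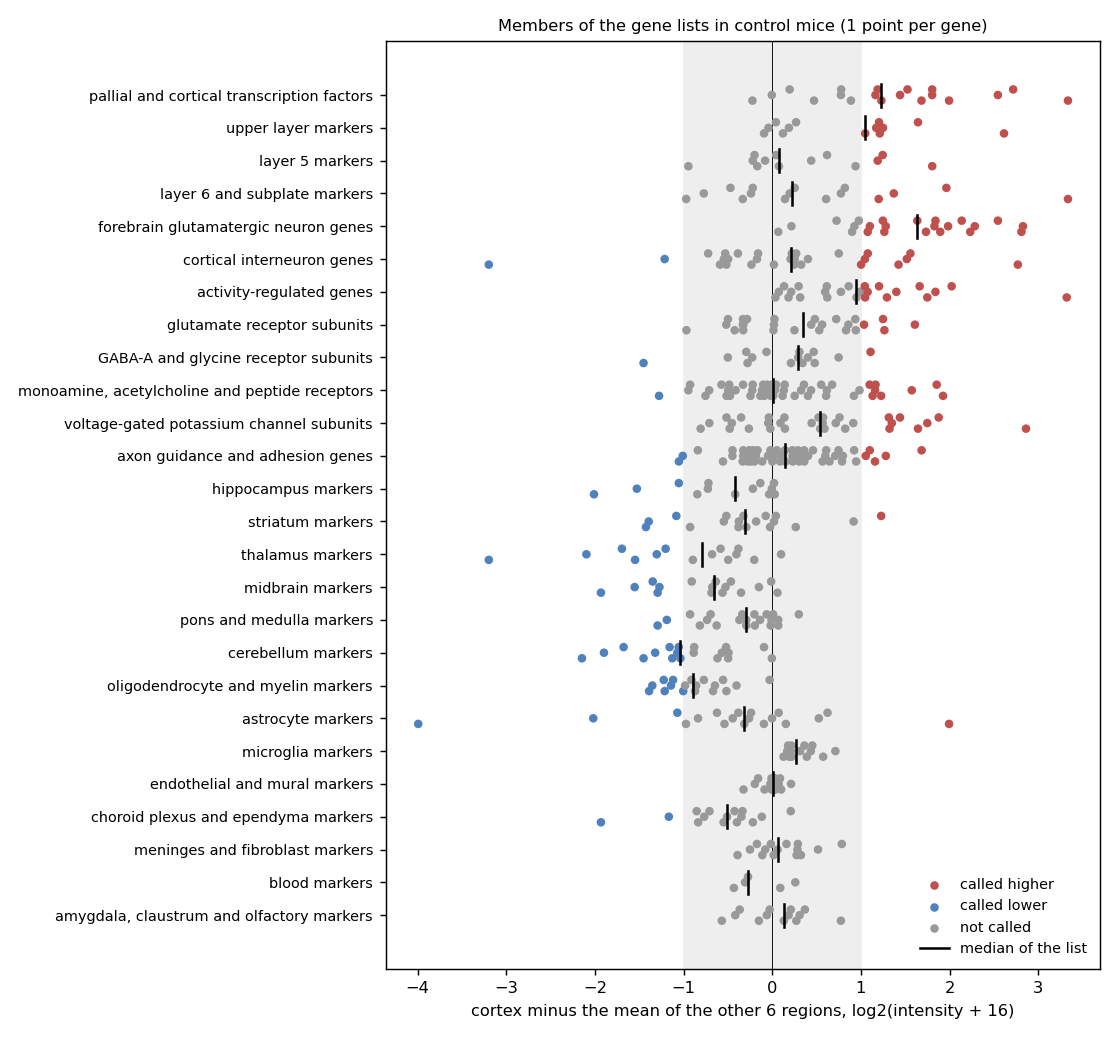
Difference of cerebral cortex from the mean of the other 6 regions in log2(value + 16) (horizontal axis) for the measured genes of 26 lists (vertical axis), with called genes in red (higher) or blue (lower), others in grey and the list median as a bar. Glutamatergic neuron genes (median 1.64) and pallial factors (1.23) lie furthest to the right, and cerebellum (-1.04) and myelin (-0.89) markers furthest to the left.

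The gene with the largest negative difference from the mean of the other regions was Agt, angiotensinogen, which astrocytes of the brainstem and hypothalamus make. It read 5.85, 4.75 and 12.7 in cortex, below the value of 16 added before taking logs, against 63.6, 417 and 1043 elsewhere. The difference was -3.99 ± 0.15 (adjusted p = 1.16e-10), and even the lowest array of the other regions was several-fold above the highest of cortex. Bbox1, the last enzyme of carnitine synthesis, read 11.01, 12.7 and 5.84 in cortex against 28.9, 98.8 and 186 elsewhere (-2.06 ± 0.13, adjusted p = 1.71e-08). Another Bbox1 probe set differed by -0.95. These 2 genes were the ones below each of the other regions. A second probe set of Zic1, a zinc finger factor of cerebellar granule cells, and a probe set shared by several histone genes also passed the rule.

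Of 19 astrocyte markers Agt, Itih3 and Gfap were lower and Lhx2 higher, with a median of -0.32, and the others were not called. Itih3, an inter-alpha-trypsin inhibitor chain, read 84.7, 86.5 and 86.6 in cortex against 105, 511 and 1088 elsewhere, with no overlap (-2.02 ± 0.13, adjusted p = 2.52e-08). Gfap, the intermediate filament of astrocytes, read 275, 293 and 466 against 305, 781 and 1848 (-1.07 ± 0.15, adjusted p = 6.89e-05) and was short of 2-fold without replicate 1 (-0.98) or replicate 2 (-0.94). The summed intensity of the 19 markers was 15003 to 15124 in cortex, within the 13709 to 21101 of the other regions.

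Genes of oligodendrocytes and myelin were lower than the mean of the other regions, 7 of 18 with 0 higher and a median of -0.89. Against hippocampus alone 0 of 18 were lower (median -0.44) and against cerebellum 0 (median -0.23), beside 0.764% and 3.28% of all genes. Against striatum 7 were lower, against thalamus 10, and 15 each against midbrain and against pons and medulla, beside 1.4% to 3.39% of all genes. Mag, an adhesion protein of the inner myelin wrap, read 358, 401 and 371 in cortex against 532, 868 and 1773 elsewhere, with no overlap (-1.21 ± 0.06, adjusted p = 1.51e-09). Ermn, a cytoskeletal protein of myelinating cells, read 194, 199 and 152 against 262, 451 and 1111, again without overlap (-1.39 ± 0.10, adjusted p = 7.68e-08). Gpr37, a receptor of oligodendrocytes, Fa2h and Ugt8a, enzymes of myelin lipids, and Mog, a myelin surface protein, were lower too (-1.35 to -1.12). Myrf, the transcription factor of myelin genes, was at the 2-fold threshold and at -0.84 without replicate 3. Mbp, the major myelin basic protein, read 4814, 4544 and 4599 against 4277, 4792 and 5471 and was not called (-0.03 ± 0.07). Its 7 other probe sets differed by -1.40 to 0.58, and 6 of these were not called either. The summed intensity of the 18 markers was 11306 to 12383 in cortex, 12926 to 13905 in cerebellum and 13275 to 14710 in hippocampus. In pons and medulla it was 24595 to 26478, and no marker was listed at 0. How far the share of myelin in each dissection moved other genes was not tested.

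Among markers of the other regions, some were lower in cortex than the mean of all 6. Of 19 cerebellum markers 10 were lower (median -1.04), of 14 thalamus markers 6, of 16 midbrain markers 5, of 18 striatum markers 3, of 13 hippocampus markers 3 and of 21 pons and medulla markers 2, and the 1 called higher was Drd1. Over all genes 1.12% were lower and 1.65% higher. Among thalamus markers Tcf7l2, a Wnt effector, read 34.1, 33.0 and 29.2 in cortex against 1025, 725 and 898 in thalamus (difference -4.21, adjusted p = 3.39e-08). Among hippocampus markers C1ql2, a synaptic organizer of mossy fibres, read 7.37, 5.24 and 4.57 against 497, 451 and 475 in hippocampus (difference -4.50, adjusted p = 2.92e-08). Among cerebellum markers Cbln3, a cerebellin of granule cells, read 9.97, 6.06 and 4.79 against 3836, 3119 and 3499 in cerebellum (difference -7.26, adjusted p = 2.46e-13). Dsp, a desmosomal plaque protein of dentate granule cells, and Cabp7, a neuronal calcium-binding protein, were also lower than in hippocampus (-3.53 and -3.00).

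Some of the leading genes recurred between regions. Egr3 was among the 3 furthest above thalamus, midbrain, pons and medulla, and cerebellum, and Agt among the 3 furthest below thalamus, midbrain, and pons and medulla. Rasgef1c was, with Dkkl1 and Lamp5, among the genes furthest above hippocampus, with 209, 126 and 209.9 in cortex against 34.5, 21.2 and 27.5 in hippocampus (difference 2.16, adjusted p = 2.29e-06). Against striatum the largest were Vip, Aldh1a2 and Car10, a carbonic anhydrase-related protein, which read 935, 937 and 989 in cortex against 173, 175 and 199.5 in striatum (difference 2.29, adjusted p = 2.3e-10). Striatum in turn was higher than cortex for Lrrc10b, Rxrg and Gpr6, an orphan receptor of medium spiny neurons, with 41.6, 34.6 and 43.4 in cortex against 970.0, 1084 and 952 in striatum (difference -4.19, adjusted p = 1.3e-10). Pmch, a hypothalamic peptide precursor, read 16.7, 31.4 and 38.2 in cortex against 2774, 2666 and 2571 in the arrays labelled thalamus (difference -5.94, adjusted p = 2.98e-10). Hoxb5, a homeobox gene of the hindbrain, read 1.22, 2.20 and 2.33 in cortex and 233, 292 and 375 in pons and medulla (difference -4.12, adjusted p = 1.96e-12).

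Markers of other cell types that a cortical dissection could hold were also read. They included 14 microglia, 17 endothelial and mural, 15 meninges and fibroblast, 5 blood and 13 amygdala, claustrum and olfactory markers. Against the mean of the other 6 regions, 0 of these were called in either direction by limma with the 2-fold rule. Over all genes that rule called 1.65% higher and 1.12% lower, and lists this short can hold 0 calls at such shares. At an adjusted p under 0.05 with no fold rule, 6 microglia markers were higher and 0 lower, 2 meninges markers higher and 1 lower, and 4 amygdala, claustrum or olfactory markers higher and 2 lower, while 0 endothelial and 0 blood markers passed. By the same rule 3779 of all 45037 probe sets were higher and 4702 lower. Single regions differed under the 2-fold rule. Of the 15 meninges markers 5 were higher in cortex than in striatum and 4 than in thalamus, beside 1.45% and 2.35% of all genes. Of the 14 microglia markers 10 were higher than in cerebellum, beside 4.83%. In these 3 comparisons 0 were lower. Aldh1a2, among the 3 genes furthest above striatum, is on the meninges list. Choroid plexus and ependyma markers were uneven between the cortex arrays, with sums of 746 to 3412, against 791 to 6850 elsewhere. Ttr, a carrier of thyroid hormone made in choroid plexus, read 2874, 377 and 1646 on the 3 cortex arrays, and 68.5, 837 and 5107 elsewhere. Of 15 such markers 2 were lower, Otx2 (-1.93 ± 0.19) and Tmem212 (-1.17 ± 0.19), and Tmem212 was not 2-fold lower without replicate 2 (-0.71).

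The same contrasts were run in the mice that breathed 8% oxygen, 7 time points of 21 arrays each. Of the 39 probe sets above every other region in the controls, 30 to 34 were called again at each time point and 27 at all 7, and all 39 kept cortex above each other region at all 7. Over all 45037 probe sets, 0.102%, 0.091%, 0.0999%, 0.0822%, 0.0844%, 0.0955% and 0.0999% were called by that rule at H1, H3, R1, R3, R6, R12 and R24. Of the 535 probe sets higher than the mean of the other regions, 437 to 462 were called again at each time point and 532 had the same sign at all 7. The share of all probe sets called higher at H1 to R24 was 1.2%, 1.19%, 1.17%, 1.2%, 1.13%, 1.18% and 1.19%. Of the 348 lower ones, 225 to 252 were called again and 344 had the same sign at all 7, against 0.642%, 0.633%, 0.682%, 0.613%, 0.744%, 0.704% and 0.664% of all probe sets called lower.

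Among the named genes, the difference of Tbr1 stayed between 3.20 and 3.50 over the 7 time points, that of Mef2c between 2.70 and 2.84 and that of Dkkl1 between 2.29 and 2.76. Of the 20 genes above every other region, 15 were called by that rule at all 7 time points. Kcnh5, Tnnc1 and 9130024F11Rik were called at 2, Kcns1 at 3 and Rprm at 5. All but 1 of the 20 were called higher than the mean of the other regions at all 7, and the exception was Kcns1, whose difference ran from 0.71 to 1.36. Agt stayed between -4.002 and -3.71 and Bbox1 between -2.28 and -1.41. Of the 4 probe sets below every other region in the controls, 1 to 3 were called so again at each time point and 0 at all 7, where 0.00666%, 0.00888%, 0.0111%, 0.00444%, 0.00888%, 0.00444% and 0.00666% of all probe sets were called by that rule at H1 to R24. Agt was called below every region at 6 of the 7 time points and Bbox1 at 0, although both were called lower than the mean of the other regions at all 7.

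**Figure D5:**
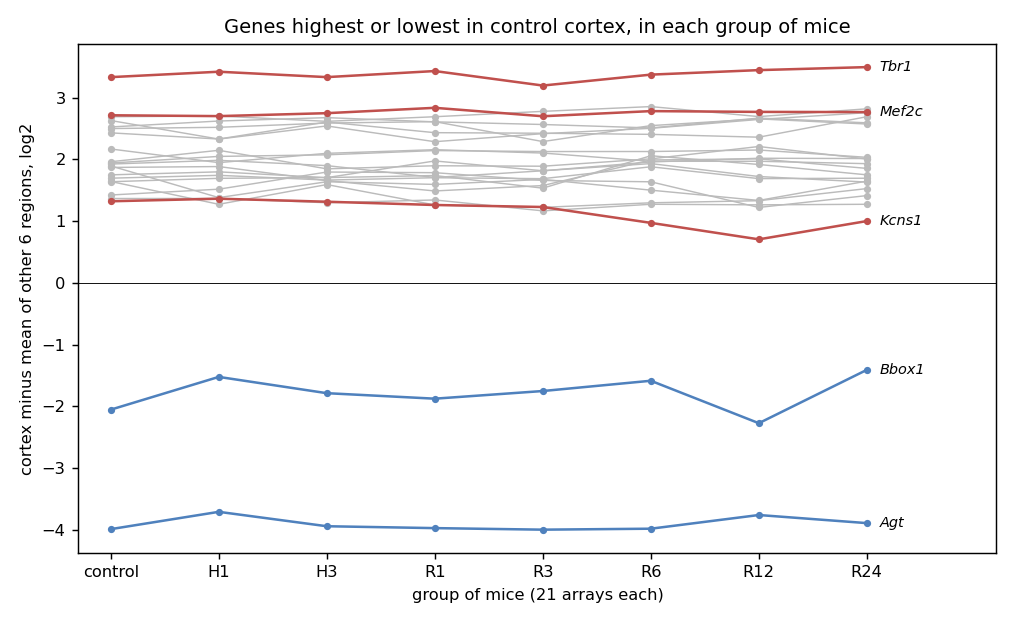
Difference of cerebral cortex from the mean of the other 6 regions in log2(value + 16) (vertical axis) for the 20 genes above every other region and for Agt and Bbox1 in control mice and at H1, H3, R1, R3, R6, R12 and R24 (horizontal axis). Tbr1 stays between 3.20 and 3.50 and Agt between -4.002 and -3.71 over the 7 hypoxia time points.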

How the data were processed

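RNA of 7 brain regions of control mice was measured on 21 arrays, 3 per region, with region, time point and replicate number taken from the labels. The authors deposited one linear signal intensity per probe set and array, scaled so that the 2% trimmed mean was about 125 on every array. The submitters' notes name GCOS 1.3 for the arrays, and the GCRMA step of the methods, which yields other values, is not seen in the table. That a replicate number marks a mouse is not in the labels, and if it does not, the p-values measure only the spread between these samples.

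Of 45101 probe sets, 64 array controls were left out. Of the 45037 others, 34945 name 1 gene in the platform annotation, 932 name more than 1 and 9160 carry no name, which gave 18193 genes with a probe set naming only them. Values were tested as log2(value + 16) in R 4.3.3 using limma 3.58.1 and data.table (version 1.17.8), with 7 region means and the replicate number as a fixed block (12 residual degrees of freedom), and p-values were adjusted by Benjamini-Hochberg over the 45037 probe sets. Between 24.4% and 30.2% of the values of an array were below 16. A gene was called at an adjusted p under 0.05 and a change of at least 2-fold, and above or below every region when all 6 pairwise contrasts passed and the nearest region was at least 2-fold away. The other 7 time points were fitted alone in the same way. Data were simulated for cortex against the mean of the other 6 regions on 45037 probe sets. An adjusted p under 0.05 found 96% of 50 probe sets changed 2-fold and 60% of 50 changed 1.5-fold. The 2-fold rule was not applied there, and the median estimate for the 2-fold changes was 1.02 log2 units, close to that threshold. These shares are therefore not those of the calls given here.

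By rule, the genes named were the 20 furthest above and up to 12 furthest below the next region. The 3 with the largest change in each direction against each region were added, and all pallial factors and layer markers. Each other list gave up to 6 called and 2 uncalled members with the highest levels, for 199 genes in all. Other called list members are given too, among them Icam5, Lhx6, Crh, Dlx1, Vipr1, Npy1r, Chrm3, Mog, Epha8, Egr2, Egr4, Fosl2 and Junb. These lie outside the 199 and outside the counts of other probe sets and settings. The 26 gene lists and the rule were chosen with earlier results of these data known. Of 576 list entries 529 were matched, and the rest were not analysed here. Promoter sequences came from RefSeq. Tables and plots were made in Python 3.11 with pandas 2.3.3, numpy 2.4.6 and matplotlib 3.10.9. The alternatives were other pseudocounts, normalizations, blocks, thresholds and filters, the methods' t-test, and leaving out each replicate or region.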

Additional observations from a re-analysis of the deposited data

Results flagged for a closer look

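The difference of cortex from the mean of the other 6 regions was compared between the control mice and each of the other 7 time points, a test added after the data were seen (interaction contrasts in limma over all arrays, Benjamini-Hochberg adjusted over 45037 probe sets). The probe sets called were 2 at H1, 2 at H3 and 1 at R12, with 0 at R1, R3, R6 and R24, while 1853 to 2438 had an unadjusted p under 0.05 at each time point. None of them was among the 39 probe sets above every other region.

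Egr1, an activity-regulated transcription factor, stood out because its cortical excess was smaller during hypoxia, by -0.99 at H1 (adjusted p = 0.00013 in limma) and -0.83 at H3 (adjusted p = 0.0147 in limma). The excess was 1.84 in the controls, 0.85 at H1, 1.01 at H3, 1.29 at R1, 1.37 at R3, 1.67 at R6 and 1.72 at both R12 and R24. At H1 the cortex arrays read 2026, 2274 and 2349 and the other 18 had a lowest, median and highest of 772, 1067 and 2884, while in the controls cortex read 1912, 2316 and 3085 and the others 338, 466 and 2852. The cortex levels of H1 lay within the range of the control arrays, and the median of the other regions was higher at H1 than in the controls.

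The other 3 genes each had one such difference between time points. Fam83g differed by -0.37 at H1 (adjusted p = 0.00212 in limma), at intensities below 16 on all control arrays. Otud3 differed by 0.47 at H3 (adjusted p = 0.0164 in limma), with 134 to 164 in cortex and 73.6 to 103 elsewhere at H3, and 129 to 140.1 in cortex and 91.5 to 134 elsewhere in the controls. Stxbp4 differed by 0.77 at R12 (adjusted p = 0.018 in limma), with 14.9, 16.2 and 33.5 in cortex and 3.71 to 9.77 elsewhere at R12. In the controls it read 4.78 to 8.78 in cortex and 5.06 to 25.0 elsewhere, so most of these values lie below 16 or near it. The groups of 3 arrays were too small to search for single outlying arrays.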

How the results depend on the processing

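The main counts were 535 probe sets higher and 348 lower than the mean of the other regions, 39 above and 4 below every region, and 10236 calls summed over the 6 regions. With no replicate block, 39 of the 39 and 533 of the 535 were called again and all 199 named genes kept their call. Deviations of same-numbered arrays of different regions correlated from -0.134 to 0.186 (median 0.0687). Those of arrays with different numbers correlated from -0.148 to 0.173 (median -0.0388). The ranges overlap while the medians lie apart, and whether a number marks a mouse was not tested. A random replicate block had a consensus correlation of 0.0398. As within-mouse differences, a replicate block that leaves few degrees of freedom, 22 probe sets were above and 1 below every region. The methods' t-test gave 11 above and 0 below every region, and against the mean 527 higher and 337 lower at the unadjusted threshold or 488 and 272 after Benjamini-Hochberg. A pseudocount of 1 gave 918 higher, 781 lower, 38 below every region and 15678 calls over the regions. A pseudocount of 32 gave 189 lower and 1 below every region. Probe sets brighter than the median gave 22 above. Leaving out hippocampus gave 95 above and 24 below every remaining region, leaving out striatum 82 and 13, and leaving out cerebellum 12 below. A 1.5-fold threshold gave 1616 higher, 1339 lower, 135 above, 56 below and 26434 calls over the regions, and a 4-fold threshold 56, 17, 0, 1 and 1702. Leaving out 1 replicate, or its cortex array alone, gave 530.0 to 577 higher, 357 to 375 lower, 32 to 39 above, 5 to 13 below and 10298 to 10634 calls over the regions. Other scalings moved the median of all probe sets by under 0.1.

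With only hippocampus and striatum as the other regions, 189 probe sets were higher and 217 lower, 56 of the 199 named genes lost their call and 19 changed sign. The sign changes were Bcl11b -1.40, Cbln3 0.049, Crym -2.13, Ddn -0.18, Drd1 -0.80, Gabra6 0.047, Gpr6 -1.87, Grin2b -0.058, Inhba -0.17, Kcnip2 -0.81, Lmo3 -0.27, Pcp2 0.24, Pmch 0.044, Pvalb 1.11, Slc17a6 0.46, Slc1a6 0.33, Slc6a5 0.23, Sncg 0.20 and Sst -0.017. Under it 2 of 23 glutamatergic neuron genes, 4 of 19 pallial factors and 2 of 25 activity-regulated genes were higher. Another probe set of the same gene had the other sign for Camk2a (-0.088), Ddc (0.15), Hkdc1 (-0.023), Inhba (-0.061), Neurod2 (-0.046), Pdzrn3 (-0.030) and Synpo2 (0.064). Of 60 called genes with further probe sets, 26 had all of these called and 21 none. The 21 include Slc32a1, Cux2, Egr3, Emx1 and Nptx2, and also Trbv1, whose other probe set differed by 0.14, Efna5 (0.070), Car10 (0.13), Drd1 (0.64), Sstr4 (0.71) and Sema3a (0.28 and 0.45).

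Without 1 replicate or its cortex array, calls among the named genes were lost for Efna5 (0.97), Efnb3 (-0.98), Gfap (-0.98), Grm3 (0.84), Lrrc10b (-0.87), Pmch (-0.92), Rxrg (-0.999) and Slc1a6 (-0.66) in replicate 1, for Arc (0.94), Efnb3 (-0.98), Gfap (-0.94) and Tmem212 (-0.71) in replicate 2, where Egr2 (0.80), Fosl2 (0.91) and Junb (0.82) were lost as well, and for Myrf (-0.84), Prox1 (-0.88), Rspo1 (0.94) and Sst (0.98) in replicate 3. Arc was also lost as within-mouse differences (adjusted p = 0.115 in limma). The 3 arrays per region limit the precision, and differences of transcripts near an intensity of 16 are understated. The cause of the changes with pseudocount, test or probe set was not tested.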
